A study of Homo sapiens with 6 samples.

Results

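The genes described here lie on a continuous stretch of human chromosome 12, from base 31647160 to base 96953691 of build hg38, which is 65.3 Mb long. It begins on the short arm, crosses the centromere and covers the proximal and middle long arm. The stretch was chosen because its genes were lower in PC9-BrM4 cells than in PC9 cells, so that difference is a description of the choice. Counts of genes that pass a threshold in that comparison restate the choice and do not test it. A member is a gene whose model starts in the stretch and whose level averages at least 5 TPM (the transcript share of a gene, a level corrected for gene length and library size) over all 6 libraries. Of 569 gene IDs in the stretch, 244 reached that level, and 23 of these were left out by name, among them keratin and ribosomal protein genes. The remaining 221 genes are the members, out of 26485 genes in the library tables. All 221 passed the filter on low values, which required at least 1 TPM in at least 2 libraries and kept 14627 genes in all, and no member was listed at 0 in any library.

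The study sequenced RNA of 3 human lung cancer cell lines, PC9-BrM4, PC9-AMG and PC9, with 2 libraries of each. PC9 is a lung adenocarcinoma line that carries an activating deletion in the receptor tyrosine kinase gene EGFR. Every culture, PC9 included, was grown in what the labels call MGS, a name they do not spell out, and they do not spell out BrM4 or AMG either. The description of every library also carries the word mix, which the labels do not explain. Nothing in the labels says that libraries of a line came from separate cultures, so the spread between them may be technical. Each derivative is 1 line, and a difference between lines cannot be told apart from a difference between the particular populations that were grown.

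A stretch of this length holds genes of many unrelated functions. Known residents of the region include the cyclin-dependent kinase genes CDK2 and CDK4, the p53 antagonist MDM2, a cluster of alpha-tubulin genes, the type II keratin cluster, the HOXC cluster with the non-coding RNA HOTAIR, and the signalling genes STAT2 and STAT6. Neighbouring genes share the DNA copy number and the chromatin of their segment. Neither was measured here, and fewer cells carrying a transcript cannot be told apart from less RNA per cell in bulk libraries such as these.

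In PC9-BrM4 cells the members were lower than in PC9 cells by a median of -0.38 on the log2(TPM + 1) scale, while the 14627 genes tested had a median of 0.09. The members' median TPM in PC9-BrM4 was 0.759 of that in PC9, taken as the median of the ratios of group means. The difference was spread over most members: 197 were below 0 and 24 above, and 123 lay between -0.6 and -0.2. Only 11 were lower by at least 1 log2 unit. The interquartile range of the members' differences was 0.346, against 0.355 for 10058 genes of other chromosomes chosen by the same level and name rule, whose median was 0.10. The members thus had a lower centre and a spread close to that of other genes.

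Both PC9-BrM4 libraries lay below both PC9 libraries for 167 members (75.6%), where 21.9% of all genes tested did so. They lay above both PC9 libraries for 16 members (7.24%), where 39.2% of all genes tested did so, and the groups overlapped for the other 38. By limma on all 14627 genes with a Benjamini-Hochberg adjusted p under 0.05, 82 members (37.1%) were called lower, beside 6.45% of all genes, and 2, among them VEZT, were called higher, beside 9.89% of all genes. These counts restate the contrast that chose the stretch.

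The values of single libraries had the same order. The members summed to 13372 and 13027 TPM in PC9-BrM4, to 17114 and 17575 TPM in PC9-AMG, and to 18037 and 17780 TPM in PC9. The PC9-BrM4 sums were the lowest, and those of PC9-AMG lay just under those of PC9. Against the mean of the PC9 libraries, the median member stood at -0.30 and -0.44 in PC9-BrM4 and at -0.09 and -0.10 in PC9-AMG. All genes tested stood at 0.15 and 0.03 in PC9-BrM4 and at -0.02 and -0.07 in PC9-AMG. The 2 PC9-BrM4 libraries differed by about as much over all genes as over the members, so the members' distance from the other genes was alike in both. Read counts were not used here. The mean coverage of a gene at 1 TPM, a stand-in for depth, was 0.636 and 0.606 in PC9-BrM4, 0.822 and 0.749 in PC9-AMG, and 0.664 and 0.627 in PC9.

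**Figure D1:**
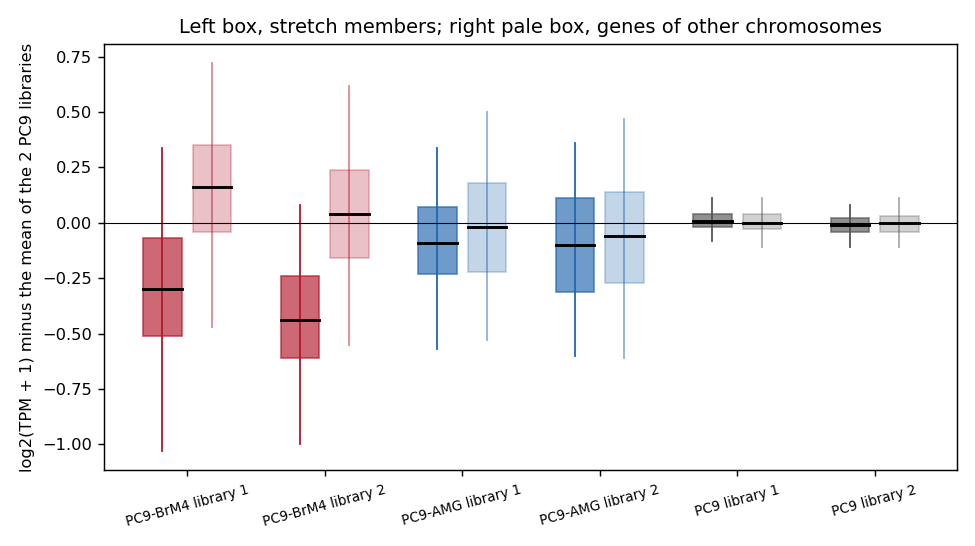
Log2(TPM + 1) of each library minus the mean of the 2 PC9 libraries (y axis), for the 221 members (left box) and 10058 genes of other chromosomes (right pale box); black lines are medians, boxes the quartiles and whiskers reach the middle 90% of genes. The members' medians were -0.30 and -0.44 in the PC9-BrM4 libraries and near those of other genes in the rest; the PC9 boxes are narrow because each PC9 library is part of its own baseline.

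The PC9-BrM4 minus PC9 difference was not even along the stretch. In windows of 5 Mb counted from its first base, the median PC9-BrM4 minus PC9 difference was 0.13 over the 9 members of the first window, AMN1 to ALG10, so the short-arm end was not lower. From CPNE8, a copine that binds phospholipids, to ATP2B1, a plasma membrane calcium pump, every window had a median below 0. These 192 members, a range set after their values were seen, had a median of -0.40, and 182 of them were below 0. The gene-dense window at 20 to 25 Mb, ACVR1B to ATP5B, had all 59 members below 0 and a median of -0.44. The next, PTGES3 to XRCC6BP1, had 24 members and a median of -0.57, the lowest among windows of at least 20 genes. The window at 5 to 10 Mb had a median of -0.63 but holds only 2 members. At the far end, the 19 members from BTG1 to CDK17 had a median of -0.04, with 12 below 0 and 7 above. The last member, NEDD1, stood at 0.11.

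The window medians at both ends depended on the library. For the first 9 members the PC9-BrM4 libraries stood at 0.32 and -0.02 against the PC9 mean, and for the 20 members from BTG1 to NEDD1 at 0.05 and -0.13. For the 192 members between, they stood at -0.33 and -0.47. In all, 12 of the 14 windows had a median below 0 with both libraries, 14 without PC9-BrM4 library 1 and 11 without PC9-BrM4 library 2.

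Outside the stretch, by the same level and name rule, the 183 genes after it had a PC9-BrM4 minus PC9 median of 0.12, close to the 0.10 of other chromosomes. The 137 genes before it had a median of -0.09, under that of other chromosomes. It was also under 2 small windows of the stretch. These were the first, at 0.13 over 9 members, and that at 60 to 65 Mb, at -0.04 over 19 members. Both PC9-BrM4 libraries lay below both PC9 libraries for 41.6% of these 137 genes, where 19.9% of the genes of other chromosomes did so, and 11.7% were called lower, where 5.68% were. In PC9-AMG minus PC9 the medians were -0.09 for the stretch, -0.09 before it and -0.07 after it, so no step stood at either end.

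**Figure D2:**
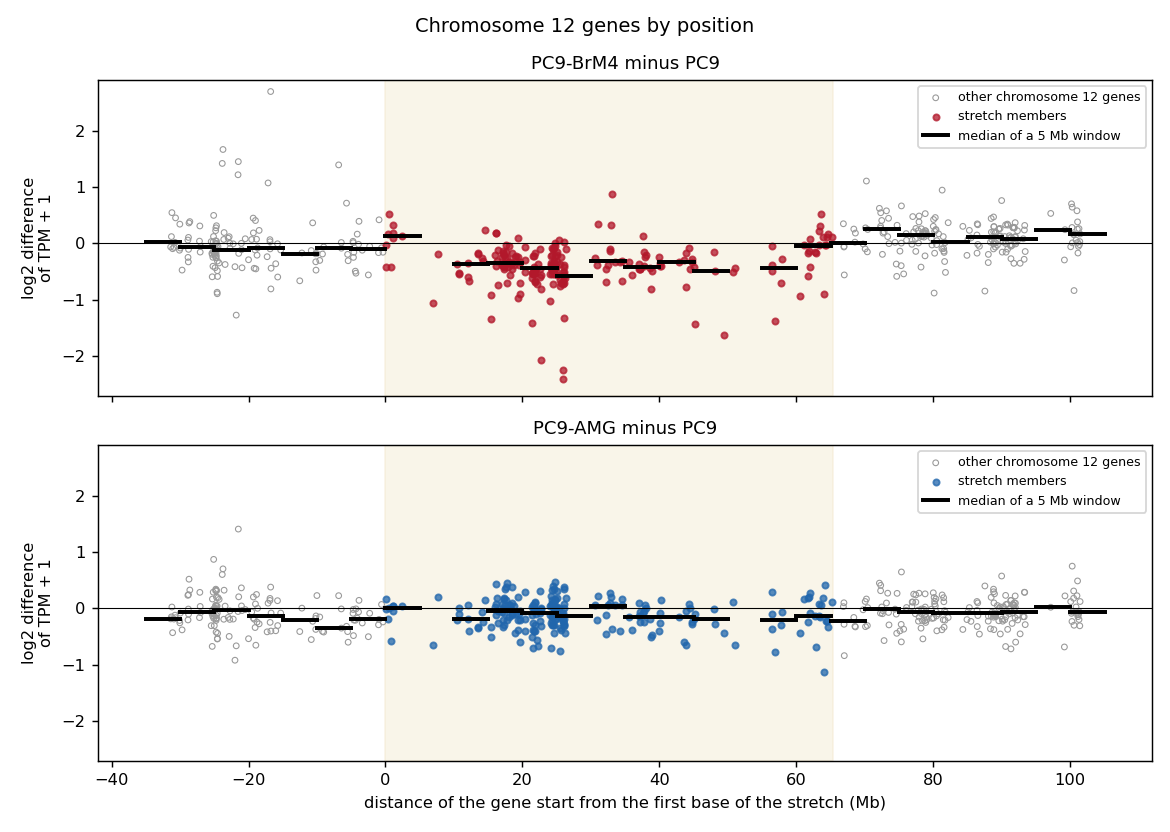
PC9-BrM4 minus PC9 (top) and PC9-AMG minus PC9 (bottom) log2 difference of TPM + 1 (y axis) for chromosome 12 genes averaging at least 5 TPM, by distance of the gene start from the first base of the stretch in Mb (x axis); filled points are the 221 members, open points other genes, black bars medians of 5 Mb windows with at least 3 genes, and the shaded band is the stretch. In the top panel the window medians inside the band are mostly below -0.3, with the first at 0.13 and that at 60 to 65 Mb at -0.04; in the bottom panel they stay near those outside.

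The stretch median of -0.38 in PC9-BrM4 minus PC9 belongs to part of a chromosome that was chosen for low values. Its rank among whole chromosomes is therefore no result. Chromosome 12 as a whole stood at -0.12, with an interquartile range of 0.508. The other chromosomes ranged from -0.07 on chromosome 7 to 0.31 on chromosome 21, over genes chosen by the same rule. Chromosome 7 had an interquartile range of 0.529. In PC9-AMG minus PC9 the stretch median of -0.09 lay inside the range of the other chromosomes, from -0.18 on chromosome 14 to 0.07 on chromosome 19.

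**Figure D3:**
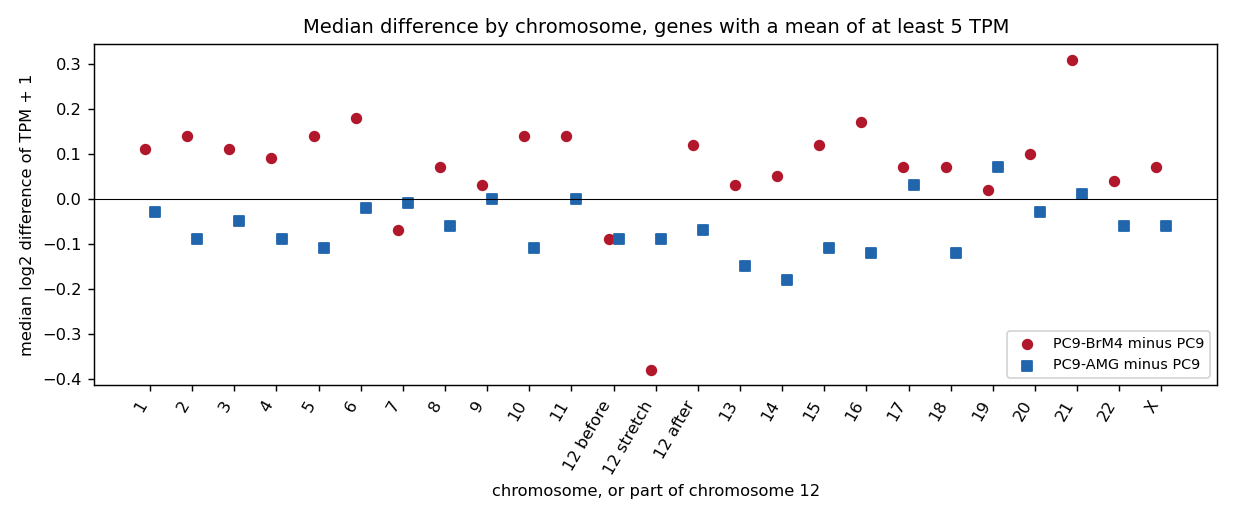
Median log2 difference of TPM + 1 (y axis) by chromosome, with chromosome 12 split into the genes before, in and after the stretch (x axis); circles are PC9-BrM4 minus PC9 and squares PC9-AMG minus PC9, over genes averaging at least 5 TPM. The circle of the stretch, which was chosen for low values, is the lowest in the plot, at -0.38. Its square, at -0.09, lies among the rest.

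The edges of the rule were not sharp. Just before the start stood CAPRIN2 at 0.42, DDX11 at -0.08 and FAM60A at -0.16 in PC9-BrM4 minus PC9, and just inside it AMN1 at -0.02, H3F3C at -0.41 and KIAA1551 at 0.16. Just inside the end stood ELK3 at 0.12, CDK17 at 0.17 and NEDD1 at 0.11, and just past it TMPO at 0.35, SLC25A3 at -0.06 and IKBIP at -0.05. Near the level threshold, CAPS2 (5.04 TPM), HOTAIR (5.09 TPM) and SRGAP1 (5.12 TPM) were inside, at -0.29, -0.36 and -0.69. ESPL1 (4.84 TPM), ALG10B (4.60 TPM) and THAP2 (4.51 TPM) were outside, at -0.06, -0.16 and 0.04. H3F3C is a copy of a histone gene made from a processed transcript, and its reads may be shared with its parent gene.

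The lowest members in PC9-BrM4 were 2 neighbours on the plus strand whose models lie 375 bases apart. ARHGEF25 (chr12:57610180-57617245), had 1.47 and 0.431 TPM in PC9-BrM4, 9.73 and 7.16 TPM in PC9-AMG, and 8.64 and 9.16 TPM in PC9. DTX3, a ubiquitin ligase of the deltex family (chr12:57604622-57609804), had 1.66 and 1.57 TPM in PC9-BrM4, 10.6 and 8.60 TPM in PC9-AMG, and 10.4 and 12.3 TPM in PC9. For both genes the PC9-BrM4 libraries lay far below the other 4, and the PC9-AMG and PC9 libraries overlapped. Their PC9-BrM4 minus PC9 differences were -2.40 and -2.24. NFE2, a transcription factor best known from blood cells, had 2.03 and 1.37 TPM in PC9-BrM4, 9.17 and 7.13 TPM in PC9-AMG, and 10.4 and 10.1 TPM in PC9, a difference of -2.07 between PC9-BrM4 and PC9. ACSS3, a mitochondrial acyl-CoA synthetase, had 2.37 and 1.86 TPM in PC9-BrM4, 7.04 and 5.30 TPM in PC9-AMG, and 7.93 and 9.36 TPM in PC9. CSRP2, a LIM domain protein, had 4.26 and 2.70 TPM in PC9-BrM4, 10.1 and 10.1 TPM in PC9-AMG, and 11.5 and 10.4 TPM in PC9. In these 3 genes too the PC9-BrM4 libraries stood apart from the rest.

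Among the 8 lowest members, 3 were also called lower in PC9-AMG, beside 3.82% of all genes tested. The 8 were chosen against the same PC9 libraries, whose values enter both comparisons, so the shared direction is given as values only. IGFBP6, a secreted protein that binds insulin-like growth factors, had 321 and 365 TPM in PC9-BrM4, 635 and 644 TPM in PC9-AMG, and 906 and 920 TPM in PC9. AMIGO2, a cell adhesion protein with leucine-rich repeats, had 27.0 and 26.2 TPM in PC9-BrM4, 45.8 and 50.2 TPM in PC9-AMG, and 68.9 and 68.4 TPM in PC9. KITLG, the ligand of the receptor KIT, had 7.90 and 6.67 TPM in PC9-BrM4, 9.59 and 13.7 TPM in PC9-AMG, and 20 and 20.7 TPM in PC9. In all 3 genes no PC9-BrM4 library overlapped a PC9-AMG library and none of PC9-AMG overlapped PC9, so the lines lay in 3 steps. PC9-BrM4 minus PC9 was -1.41 for IGFBP6, -1.34 for AMIGO2 and -1.37 for KITLG.

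A few members ran the other way. BICD1, an adaptor of the dynein motor, had 6.90 and 6.82 TPM in PC9-BrM4, 4.53 and 4.45 TPM in PC9-AMG, and 4.63 and 4.35 TPM in PC9. VEZT, an adherens junction protein, had 38.2 and 31.9 TPM in PC9-BrM4, 23.9 and 26.9 TPM in PC9-AMG, and 23.4 and 25 TPM in PC9. BICD1 and VEZT were above PC9 by 0.52 and 0.51 in PC9-BrM4 and overlapped PC9 in PC9-AMG. FGD6, which starts 281 bases from VEZT on the other strand, differed by 0.30 between PC9-BrM4 and PC9. The other high members were PPM1H, a phosphatase, at 0.34, the desmosome protein PKP2 at 0.33, RASSF3 at 0.33 and the glutamine transporter SLC38A1 at 0.24.

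**Figure D4:**
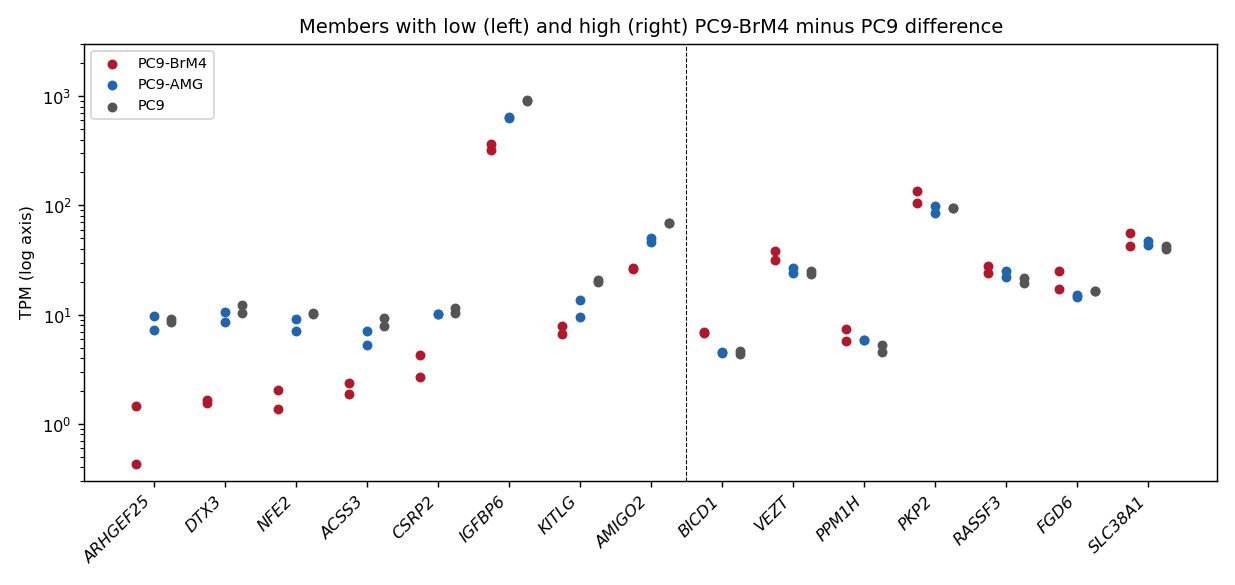
TPM on a log axis (y axis) of the 8 members with the lowest (left) and 7 of the 8 with the highest (right) PC9-BrM4 minus PC9 difference, 1 point per library, in the order PC9-BrM4, PC9-AMG and PC9 for each gene. ARHGEF25, DTX3, NFE2, ACSS3 and CSRP2 have PC9-BrM4 points far under the other 4, IGFBP6, KITLG and AMIGO2 form 3 steps, and BICD1 and VEZT are highest in PC9-BrM4.

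The sequences upstream of 4 of the members that were lower in both derivatives and of VEZT are given here. The 4 were called in PC9-AMG as well, and VEZT was among the highest members in PC9-BrM4. Other members that fit the same description are not shown, such as CPNE8, at -1.06 in PC9-BrM4 and -0.65 in PC9-AMG against PC9. The sequences come from RefSeq on GRCh38.p14, run 5′ to 3′ on the gene's strand and stop before the deposited gene model. Capitals mark the GC box GGGCGG and the CCAAT box CCAAT on either strand. They span chr12:53097417-53097651 on the plus strand for IGFBP6, chr12:47079952-47080201 on the minus strand for AMIGO2, chr12:88580474-88580721 on the minus strand for KITLG, chr12:95790765-95791014 on the minus strand for NTN4 and chr12:95217557-95217745 on the plus strand for VEZT.
IGFBP6: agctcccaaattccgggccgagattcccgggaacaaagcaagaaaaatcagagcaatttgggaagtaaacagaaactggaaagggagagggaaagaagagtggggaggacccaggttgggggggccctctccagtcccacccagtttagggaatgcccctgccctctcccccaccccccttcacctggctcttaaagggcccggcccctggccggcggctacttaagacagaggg
AMIGO2: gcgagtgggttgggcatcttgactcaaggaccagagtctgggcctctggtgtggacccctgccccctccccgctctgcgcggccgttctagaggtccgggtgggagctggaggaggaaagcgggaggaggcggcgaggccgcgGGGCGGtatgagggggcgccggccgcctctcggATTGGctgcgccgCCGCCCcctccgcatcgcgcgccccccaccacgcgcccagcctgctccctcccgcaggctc
KITLG: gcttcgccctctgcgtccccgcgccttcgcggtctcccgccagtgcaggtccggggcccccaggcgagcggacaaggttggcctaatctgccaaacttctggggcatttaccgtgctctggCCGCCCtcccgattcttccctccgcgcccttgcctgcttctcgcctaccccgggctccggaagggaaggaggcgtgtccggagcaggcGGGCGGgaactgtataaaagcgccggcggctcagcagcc
NTN4: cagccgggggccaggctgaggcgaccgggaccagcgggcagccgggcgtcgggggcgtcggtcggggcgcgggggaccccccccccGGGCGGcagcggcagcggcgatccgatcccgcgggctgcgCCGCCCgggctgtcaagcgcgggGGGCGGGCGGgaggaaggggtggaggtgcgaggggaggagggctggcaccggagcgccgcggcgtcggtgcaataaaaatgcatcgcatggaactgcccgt
VEZT: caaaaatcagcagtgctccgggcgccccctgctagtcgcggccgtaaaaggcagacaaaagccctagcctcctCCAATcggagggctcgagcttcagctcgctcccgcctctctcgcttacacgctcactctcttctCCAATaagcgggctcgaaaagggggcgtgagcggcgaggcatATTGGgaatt

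IGFBP6 had no match to either motif in this window, AMIGO2 had 2 GC boxes and 1 CCAAT box, KITLG had 2 GC boxes, NTN4 had 4 GC boxes and VEZT had 3 CCAAT boxes. GC content ran from 59.1% upstream of IGFBP6 to 78.4% upstream of NTN4. A promoter entry was found for 172 members. The GC box stood in 68.6% of them, against 42.5% of all 34943 promoters and 70.5% of the 7707 promoters of genes at the same level on other chromosomes. For CCAAT the shares were 35.5%, 32.0% and 35.0%, for the TATA box TATAAA 5.23%, 10.8% and 4.71%, and for the AP-1 site TGANTCA 4.07%, 6.59% and 3.79%, all on both strands. The E box CACGTG stood in 13.4%, 6.32% and 8.85%. For the first 4 motifs the members were close to other expressed genes. The median GC content was 62.6% upstream of members and 65.6% upstream of expressed genes elsewhere.

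Sorted by what the genes do, the members were lower in PC9-BrM4 across unrelated roles. The 9 role lists hold 181 of the members, and their medians in PC9-BrM4 minus PC9 lay between -0.21 and -0.42. The 17 members of the cell cycle and replication list had a median of -0.41, the 18 chromatin members -0.41, the 23 signalling members -0.42, and the 19 cytoskeleton, adhesion and surface members -0.42. The 29 vesicle and endoplasmic reticulum members had a median of -0.39, the 20 of mitochondria and metabolism -0.35, the 30 of RNA processing and translation -0.33, and the 17 transcription factors -0.33. All 18 chromatin members were below 0. The 8 transporters and channels had the smallest median, -0.21, with 6 below 0.

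Among cell cycle members, BTG1, which restrains proliferation, stood at -0.93 in PC9-BrM4 minus PC9, with 57.7 and 52.9 TPM in PC9-BrM4, 71.4 and 85.6 TPM in PC9-AMG, and 110 and 102 TPM in PC9. CDK4, the kinase partner of D-type cyclins, had 77.8 and 87.8 TPM in PC9-BrM4, 137 and 143 TPM in PC9-AMG, and 112 and 109 TPM in PC9. TROAP, a spindle-associated protein, had 8.09 and 7.42 TPM in PC9-BrM4, 19.0 and 18.2 TPM in PC9-AMG, and 12.8 and 13.8 TPM in PC9. BTG1 was below PC9 in both derivatives, while CDK4 and TROAP were below PC9 in PC9-BrM4 and above it in PC9-AMG. MDM2 had 12.8 and 10.9 TPM in PC9-BrM4, 15.2 and 16.3 TPM in PC9-AMG, and 15.8 and 17.3 TPM in PC9. The kinases DYRK2 and CDK2 stood at -0.56 and -0.39 in PC9-BrM4 minus PC9, and the centrosomal CEP290 at -0.50. BTG1 overlaps another model on its strand, so its reads could be split.

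Of the 17 transcription factors, 13 were below 0 in PC9-BrM4 minus PC9. STAT6, which acts downstream of interleukin receptors, had 48.3 and 42.8 TPM in PC9-BrM4, 68.6 and 53.6 TPM in PC9-AMG, and 72.8 and 81.5 TPM in PC9. Its difference of -0.75 was larger than that of STAT2, the interferon signalling factor, at -0.41. The retinoic acid receptor RARG stood at -0.54, the zinc finger protein ZNF385A at -0.82 and the architectural factor HMGA2 at -0.33. VDR, the vitamin D receptor, had 7.53 and 5.75 TPM in PC9-BrM4, 8.39 and 7.55 TPM in PC9-AMG, and 4.86 and 6.58 TPM in PC9, so PC9-BrM4 and PC9 overlapped. SMARCC2 and ARID2, subunits of SWI/SNF chromatin remodellers, stood at -0.71 and -0.26, the coactivator CALCOCO1 at -0.72, MBD6 at -0.67, PPHLN1 at -0.53 and the histone methyltransferase KMT2D at -0.41. The groups overlapped for ARID2 and KMT2D.

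Abundant members were lower in PC9-BrM4 as well. MYL6, a myosin light chain, had 1042 and 1201 TPM in PC9-BrM4, 1386 and 1535 TPM in PC9-AMG, and 1573 and 1536 TPM in PC9. CD63, a tetraspanin of endosomes and exosomes, had 573 and 599 TPM in PC9-BrM4, 888 and 866 TPM in PC9-AMG, and 853 and 848 TPM in PC9. HNRNPA1, a splicing regulator, had 394 and 382 TPM in PC9-BrM4, 541 and 562 TPM in PC9-AMG, and 593 and 575 TPM in PC9. PC9-BrM4 lay under both other lines in all 3 genes. The PC9-BrM4 minus PC9 differences were -0.47, -0.54 and -0.59. The RNA-binding protein PCBP2 stood at -0.66, the translation factors EIF4B and TSFM at -0.61 and -0.58, and TMBIM6, an endoplasmic reticulum protein that restrains cell death, at -0.33. HNRNPA1 and PCBP2 have close copies elsewhere in the genome, PCBP2 also overlaps PCBP2-OT1 on its strand, and how shared reads were counted is not given in the sources used here.

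Vesicle and endoplasmic reticulum members included BLOC1S1, a subunit of a complex that positions lysosomes, at -1.01, DCTN2, a dynactin subunit, at -0.72, OS9, a lectin of protein quality control, at -0.71 and DAZAP2 at -0.69. BLOC1S1 overlaps the readthrough model BLOC1S1-RDH5. Metabolic members included the mitochondrial protein LETMD1 at -0.96 and the hydrolase NUDT4 at -0.58. Signalling members included the kinase MAP3K12 at -0.68, and surface members the small transmembrane protein SMAGP at -0.89. Transporters differed less: the sugar nucleotide carrier family member SLC35E3 stood at -0.45, ATP2B1 at -0.27 and the iron transporter SLC11A2 at -0.24.

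The alpha-tubulin genes TUBA1A, TUBA1B and TUBA1C lie side by side, and in PC9-BrM4 minus PC9 they stood at -0.03, -0.25 and -0.15, all nearer 0 than the members' median; they were not tested against their neighbours. TUBA1B had 453 and 477 TPM in PC9-BrM4, 696 and 706 TPM in PC9-AMG, and 568 and 542 TPM in PC9. TUBA1C had 332 and 342 TPM in PC9-BrM4, 483 and 493 TPM in PC9-AMG, and 382 and 368 TPM in PC9. PC9-AMG was the highest line for both. These genes share most of their coding sequence, so reads may be divided among them uncertainly.

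**Figure D5:**
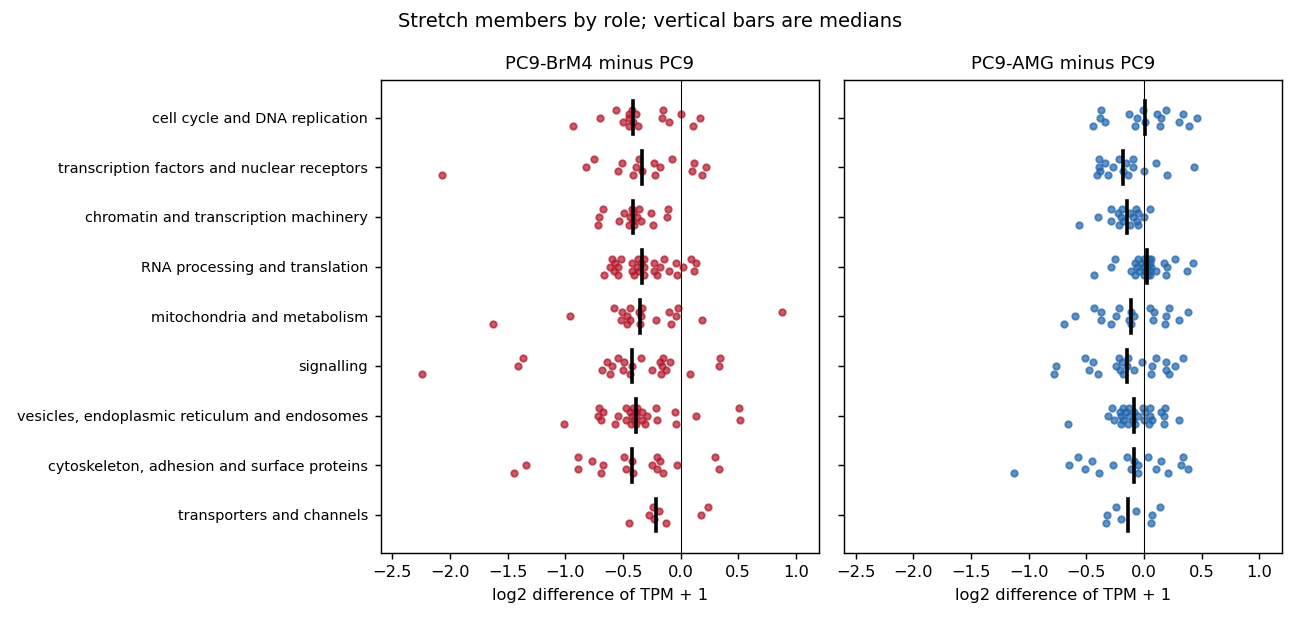
Log2 difference of TPM + 1 (x axis) of the 181 members in the 9 role lists (y axis), 1 point per gene, for PC9-BrM4 minus PC9 (left) and PC9-AMG minus PC9 (right); vertical bars are medians. The left medians lie between -0.21 and -0.42, and the right ones between -0.18 and 0.02.

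PC9-AMG against PC9 was not used to choose the stretch, although it shares the PC9 libraries with the comparison that was. The members' median difference was -0.09, against -0.05 over all genes tested. By limma, 8 members (3.62%) fell, beside 3.82% of all genes tested, and 5 (2.26%) rose, beside 3.67%. Both PC9-AMG libraries lay below both PC9 libraries for 96 members (43.4%), beside 35% of all genes, and above them for 39 (17.6%), beside 24.8%. Together 13 members (5.88%) were called, beside 7.49% of all genes tested. Among genes at the same level on other chromosomes, 4.48% fell and 4.39% rose. The members' called shares were under these backgrounds, while the share with both PC9-AMG libraries below PC9 was over its background, which was 36.6% among genes at the same level. That difference was not tested.

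The genes that fell in PC9-AMG included 4 secreted or surface proteins. NTN4, a laminin-related netrin of basement membranes (chr12:95657807-95790758), had 29.1 and 22.1 TPM in PC9-BrM4, 19.1 and 24.1 TPM in PC9-AMG, and 49.1 and 47.0 TPM in PC9. Both derivatives lay below PC9, and their own libraries overlapped each other. NTN4 fell by 1.13 in PC9-AMG against PC9 (SE 0.160, limma adjusted p = 0.00594). IGFBP6 fell by 0.51 (SE 0.0829, limma adjusted p = 0.00948), AMIGO2 by 0.51 (SE 0.108, limma adjusted p = 0.0251) and KITLG by 0.78 (SE 0.180, limma adjusted p = 0.0340). The other 4 were CPNE8 at -0.65 (limma adjusted p = 0.0267), the glycosyltransferase GALNT6, which starts mucin-type sugar chains, at -0.60 (limma adjusted p = 0.0267), TMEM198B at -0.70 (limma adjusted p = 0.0256) and the endoplasmic reticulum protein TMCC3 at -0.67 (limma adjusted p = 0.0376). In PC9-BrM4 minus PC9, TMEM198B, GALNT6 and TMCC3 stood at -0.34, -0.33 and -0.18.

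The 5 genes that rose in PC9-AMG have roles in the cytoskeleton, growth, splicing and energy supply. TUBA1C rose by 0.38 (SE 0.0760, limma adjusted p = 0.0202) and TUBA1B by 0.34 (SE 0.0746, limma adjusted p = 0.0282). PA2G4, an ERBB3-binding growth regulator, had 92.7 and 93.6 TPM in PC9-BrM4, 135 and 127 TPM in PC9-AMG, and 101 and 98.3 TPM in PC9, and rose by 0.39 (limma adjusted p = 0.0342). SNRPF, a core protein of spliceosomal particles, had 74.9 and 81.3 TPM in PC9-BrM4, 102 and 111 TPM in PC9-AMG, and 76.3 and 83.4 TPM in PC9, and rose by 0.42 (limma adjusted p = 0.0415). PC9-AMG was the highest line for both. ATP5B, the catalytic subunit of ATP synthase, rose by 0.30 (limma adjusted p = 0.0397). CDK4 did not pass the test, at 0.34 (limma adjusted p = 0.0653).

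Leaving out a PC9-AMG or PC9 library leaves that line with 1 library, which is then assumed to vary like the other lines, and few degrees of freedom remain. With each of the 6 libraries left out in turn, only NTN4 of the 13 kept its call every time, with a highest adjusted p of 0.0476, and over all alternatives its adjusted p ran from 0.000446 to 0.157. The other 12 each lost theirs without at least 1 PC9-AMG or PC9 library, and IGFBP6, TUBA1B, SNRPF and ATP5B also lost it when each library was centred on its median.

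By role, the called members in PC9-AMG were 2 that fell and 2 that rose among 19 cytoskeleton, adhesion and surface genes, 2 that fell among 23 signalling genes, 1 that fell and 1 that rose among 20 genes of mitochondria and metabolism, 1 that rose among 17 cell cycle genes and 1 that rose among 30 genes of RNA processing and translation. Over all genes tested 3.82% fell and 3.67% rose, and the counts in these lists were not tested against those shares. The remaining 3 that fell are in no list. The list medians in PC9-AMG minus PC9 ran from -0.18 for transcription factors to 0.02 for RNA processing and translation.

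Set directly against each other, PC9-AMG was above PC9-BrM4 by a median of 0.29 over the members, against -0.13 over all genes tested. By limma 70 members (31.7%) were called higher in PC9-AMG, beside 6.31% of all genes, and 2 (0.905%) lower, beside 12.3%. This comparison uses the PC9-BrM4 libraries that chose the stretch, so it describes them again.

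Level and strand made little difference to the PC9-BrM4 minus PC9 median. It was -0.36 over the 73 members with the lowest mean level, -0.38 over the middle 74 and -0.42 over the 74 with the highest. It was -0.39 over 111 plus-strand members and -0.37 over 110 minus-strand members. By longest GENCODE transcript, known for 215 members, it was -0.42 for the shortest 71, -0.37 for the middle 72 and -0.34 for the longest 72. Transcript length went with the PC9-AMG minus PC9 difference instead: the medians were 0.01, -0.17 and -0.15 from short to long, and 0.06, -0.05 and -0.15 over the expressed genes of the whole table. The part of length in the PC9-AMG values was not tested.

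Marker lists of other cell types were low beside the epithelial list, and some differed between lines. The astrocyte list summed to 27.2 to 28 TPM in PC9-BrM4, 70.0 to 75.8 TPM in PC9-AMG and 32.8 to 36.3 TPM in PC9. Of its 8 genes, GFAP and S100B were at 0 in all 6 libraries, and 3 passed the filter on low values. The genes that carry its sum are not named here. Of the 6 microglia genes, 4 were at 0 in all 6 libraries. The fibroblast list summed to 15.6 to 17.1 TPM in PC9-BrM4, 9.06 to 15.4 TPM in PC9-AMG and 8.92 to 10.9 TPM in PC9. Of its 4 genes, 1, LUM, was at 0 in all 6. The lists of microglia, oligodendrocytes, neurons and endothelial cells stayed at or under 26.8 TPM in every library. The lung epithelial list summed to 11499 to 12015 TPM in PC9-BrM4, 13456 to 13966 TPM in PC9-AMG and 15559 to 15819 TPM in PC9, and 3 of its 8 genes, KRT7, KRT8 and KRT18, lie in the stretch but are not members. The part of these lists in the members' differences was not tested.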

How the data were processed

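Per the labels' protocols, TRIzol RNA went into TruSeq Stranded mRNA libraries. The submitters' processing notes name HISAT2 2.1.0, StringTie 1.3.4d and build hg38, with no role or order. The authors deposited TPM, FPKM and coverage per gene: TPM and FPKM are normalized by the authors, and the deposited coverage is mean depth per base. Rows of 1 gene ID were summed. Log2(TPM + 1) values were fitted in limma (version 3.58.1, under R 4.3.3), with a mean per group over all 6 libraries, trended moderation and Benjamini-Hochberg adjustment over 14627 genes. The fold on this scale understates changes of low genes. On simulated data for PC9-AMG against PC9 (14627 genes, 200 changed), 40% of changes of 0.5 log2 units and 96% of changes of 1 were recovered, with 18 false calls. In the deposited data 1096 genes were called in that comparison, and whether these figures carry over to it was not tested. The members, role lists and naming rule were chosen with earlier results of these data known. The text names up to 4 members per role list and the 8 lowest and 8 highest by PC9-BrM4 minus PC9, up to 10 called in PC9-AMG, 3 genes either side of each edge and a fixed list that includes CDK4, MDM2 and the tubulins; ATP5B was named after its values were seen. Of the members this rule names, 1 is not reported here.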

Additional observations from a re-analysis of the deposited data

Results flagged for a closer look

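For 10 of the named members the 2 PC9-BrM4 libraries lay on one side of both PC9 libraries and the 2 PC9-AMG libraries on the other. No test of the difference between the derivatives is given for these genes, since that difference rests on the PC9-BrM4 libraries that chose the members. Both comparisons with PC9 share the PC9 libraries. On the log2 scale, below PC9 in PC9-BrM4 and above it in PC9-AMG were TROAP (-0.70 in PC9-BrM4 and 0.46 in PC9-AMG), CDK4 (-0.41 in PC9-BrM4 and 0.34 in PC9-AMG), CDK2 (-0.39 in PC9-BrM4 and 0.14 in PC9-AMG), CD63 (-0.54 in PC9-BrM4 and 0.04 in PC9-AMG), TUBA1B (-0.25 in PC9-BrM4 and 0.34 in PC9-AMG), TUBA1C (-0.15 in PC9-BrM4 and 0.38 in PC9-AMG), ATP5B (-0.21 in PC9-BrM4 and 0.30 in PC9-AMG) and PA2G4 (-0.10 in PC9-BrM4 and 0.39 in PC9-AMG). Above PC9 in PC9-BrM4 and below it in PC9-AMG were FGD6 (0.30 in PC9-BrM4 and -0.15 in PC9-AMG) and CDK17 (0.17 in PC9-BrM4 and -0.34 in PC9-AMG). None of these signs changed under median centring, quantile normalization, rescaling without the 100 highest genes or FPKM. Over all members, 26 (11.8%) were below in PC9-BrM4 and above in PC9-AMG, beside 2.94% of all genes tested, and 5 (2.26%) were the reverse, beside 8.29%; the lower PC9-BrM4 values chose the members.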

How the results depend on the processing

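No member median changed sign. Called values against PC9 kept their sign in the named members and in the 13 called in PC9-AMG. The signs of the other called members were not checked. Some uncalled values near 0 changed sign. Without PC9-BrM4 library 1, all 14 windows had a median below 0 and NEDD1 stood at -0.13. With no filter on low values, the members called in PC9-AMG against PC9 by limma numbered 0, beside 0.204% of all 26485 genes. At an unadjusted p under 0.05 there were 45 members (20.4%), beside 14% of those genes. That background includes the genes under the filter, so the shares are not alike. In the main fit the order was the reverse, 22.2% of members beside 25.3% of all genes tested. The members called in PC9-AMG against PC9 numbered 27 with a filter at 5 TPM (12.2%, beside 13.3% of all genes). They numbered 20 with robust moderation (9.05%, beside 9.82%) and 1 without the moderation trend (0.452%, beside 2.22%). The median of PC9-AMG minus PC9 was -0.02 under median centring and under FPKM. Relative to all genes tested it was -0.04 and -0.03, beside -0.04 in the main fit. In PC9-BrM4 against PC9 the members called numbered 21 with no filter, 50 without the trend and 28 to 87 leaving out each library. The PC9-BrM4 minus PC9 median was -0.48 under median centring and under quantile normalization, and -0.30 to -0.44 leaving out each library. Relative to all genes tested it was -0.46, -0.49 and -0.44 to -0.47 in that order, beside -0.47 in the main fit. It was -0.43 under FPKM and -0.38 with no filter. In PC9-AMG against PC9-BrM4 the members called numbered 117 under median centring, 19 with no filter and 37 to 62 leaving out each library; its median was 0.46 under median centring, 0.41 under quantile normalization, 0.37 under FPKM and 0.21 to 0.36 leaving out each library. Libraries of the same replicate number did not deviate together (r between -0.0388 and 0.0292 over genes, which are not independent). With the replicate block, 19 members (8.6%, beside 8.87% of all genes) were called in PC9-AMG against PC9 (13 without it). In PC9-BrM4 against PC9 there were 88 (39.8%, beside 17.0%, and 84 without it). The medians stayed at -0.09 in PC9-AMG minus PC9, -0.38 in PC9-BrM4 minus PC9 and 0.29 in PC9-AMG minus PC9-BrM4. Another 2 member sets were added after the data were seen: the 192 from CPNE8 to ATP2B1 had a PC9-BrM4 minus PC9 median of -0.40, and the 214 with no overlapping model on their strand one of -0.38. With 2 libraries a group, small differences of low genes are not resolved.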

Other observations

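Medians over genes of the stretch that are not members had the same sign as the members' medians. The 23 genes left out by name had a PC9-BrM4 minus PC9 median of -0.20, with 14 below 0 and 9 above. They ranged from -0.98 to 4.11, and their PC9-AMG minus PC9 median was -0.01. The 59 tested genes that averaged under 5 TPM had a PC9-BrM4 minus PC9 median of -0.22, with 41 below 0 and 18 above. Their PC9-AMG minus PC9 median was -0.12. Both sets come from the contrast and region that chose the stretch, and are given as values with no test.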
